A study of Spodoptera frugiperda with 3 samples.

Results

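The genes of the mitochondrial genome were taken from 3 gene tables of Verson's glands of the fall armyworm (Spodoptera frugiperda), as every row on the same sequence as the ribosomal RNA (rRNA) gene AOB78_gr02. This sequence is named NC_027836.1 in the files. It held 37 of the 20644 rows, namely 13 protein-coding genes, 22 transfer RNA (tRNA) genes and 2 rRNA genes. Verson's glands are secretory glands of the caterpillar skin and are found along the body, a pair to a segment. All 3 libraries came from the transgenic FAW-SID1 strain, which carries green fluorescent protein (GFP) under the hr5-IE1 promoter and the double-stranded RNA channel SID1 of Caenorhabditis elegans under the IE1 promoter. The glands were dissected from last instar larvae (L6), prepupae and pupae, with 1 library of total RNA for each stage. The sources used here do not give how many animals went into a library, the age of the pupae or the step that removed or kept rRNA. According to the paper, the glands are lost by programmed cell death within a day of pupation. The part of this in the pupal values was not tested. As each stage had 1 library, no difference between stages could be checked against replicates, and there are no p-values. The 95% intervals below cover counting error only.

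Mitochondrial DNA of insects codes for core subunits of the respiratory chain and of ATP synthase, and for the rRNAs and tRNAs that the organelle uses to translate them. In animals both strands are copied into long precursors, and the tRNAs that lie between most genes mark where these are cut into single RNAs. Nuclear genes supply all other subunits of the chain, including the whole of complex II, and the proteins that copy and read the mitochondrial DNA.

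The tables held 21936424, 16901356 and 20336159 gene reads for L6, prepupa and pupa. Of these, 85.6%, 0.280% and 34.1% lay on rRNA genes, so that 3164095, 16853960 and 13408273 reads remained outside rRNA. All shares and counts per 1000000 reads (CPM) of single genes were taken over the reads outside rRNA, unless another total is named. Between 86.4% and 89.5% of those reads were uniquely mapped, whereas every read of the 37 mitochondrial rows was. The 13 mitochondrial protein-coding genes have an exon length of 0 in the tables and are the only such rows. Their deposited TPM is therefore 0 and their reads stand in the intron column, where they made up 57.6% of all intron reads in L6, 44.4% in prepupa and 65.2% in pupa. Their gene reads were used here. Whether strand was used in counting is not given, so reads from the opposite strand cannot be told apart from those of a gene.

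The protein-coding genes of the mitochondrial genome took the smallest share of the reads outside rRNA in prepupal glands. They had 328286 reads in L6, 750917 in prepupa and 1118496 in pupa. These were 10.4% (95% Wilson interval 10.3 to 10.4) of the reads outside rRNA in L6, 4.46% (4.45 to 4.47) in prepupa and 8.34% (8.33 to 8.36) in pupa. The order of the stages depended on the total. Over all gene reads, rRNA included, the same genes had 1.497% in L6, 4.44% in prepupa and 5.50% in pupa, so that L6 was then the lowest. The share of reads on nuclear rRNA was 85.3%, 0.0974% and 31.7% in L6, prepupa and pupa, and a difference between the stages cannot be told apart from a difference in how rRNA was handled in each library. In whole glands fewer cells of a type and less RNA per cell cannot be told apart either.

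**Figure D1:**
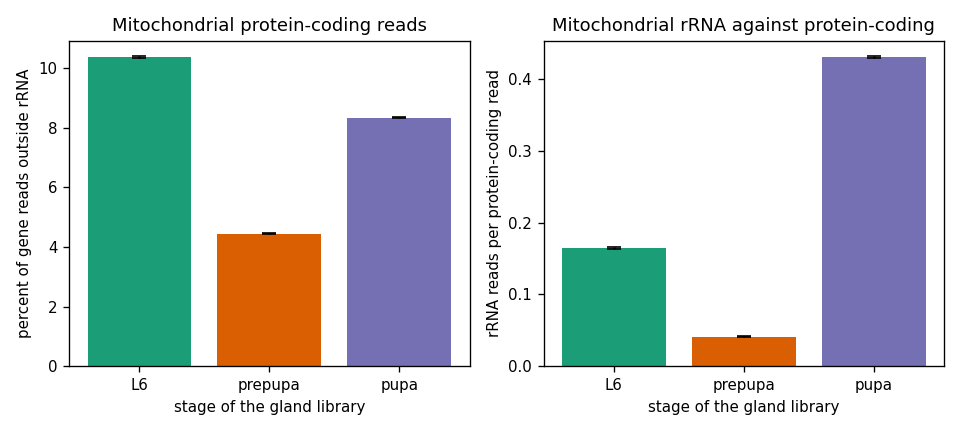
Left, reads of the 13 mitochondrial protein-coding genes in percent of gene reads outside rRNA, and right, mitochondrial rRNA reads per mitochondrial protein-coding read, each with 1 bar per library (L6, prepupa, pupa) and black bars for the 95% counting interval. Prepupa is lowest in both, at 4.46% and 0.0412 (over all gene reads, rRNA included, the share is lowest in L6), while L6 is highest on the left, at 10.4%, and pupa on the right, at 0.430.

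The 3 mitochondrial subunits of cytochrome c oxidase (complex IV), which passes electrons to oxygen, held most of these reads at every stage. COX1 carries the site where oxygen is reduced, and COX2 takes up the electrons from cytochrome c. COX1, COX2 and COX3 together took 77.8% of the mitochondrial protein-coding reads in L6, 79.6% in prepupa and 80.6% in pupa. With CYTB and ATP6 added, the 5 genes held 93.6%, 94.4% and 94.5%. The 7 complex I genes together held only 6.41%, 5.64% and 5.51%. The 4 genes on the complementary strand, all of complex I (ND1, ND4, ND4L and ND5), held 5.47%, 4.35% and 3.94%.

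COX1 (1461 to 2991) had 177570 reads in L6, 395522 in prepupa and 454662 in pupa. It was the gene with most reads outside rRNA in L6 and pupa, of all genes, and ranked 2 in prepupa. Its share of the mitochondrial protein-coding reads was 54.1%, 52.7% and 40.6% in L6, prepupa and pupa. COX3 (4711 to 5499), which has no redox centre, went the other way. It had 58095, 162048 and 322357 reads, or 17.7%, 21.6% and 28.8%. COX2 (3060 to 3741) had 19705, 40070 and 124885 reads, and its share of 11.2% in pupa stood above 5.34% in prepupa and 6.002% in L6.

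The balance within complex IV therefore differed between the libraries, whichever total the libraries are scaled by. Of the complex IV reads COX1 took 69.5%, 66.2% and 50.4% in L6, prepupa and pupa, COX3 took 22.7%, 27.1% and 35.7%, and COX2 took 7.72%, 6.70% and 13.8%. The 3 genes lie on 1 strand in the order COX1, COX2, COX3, with 1 tRNA gene between COX1 and COX2, and with 2 tRNA genes, ATP8 and ATP6 between COX2 and COX3. Per base of gene, COX1 reads stood at 1.58 times those of COX3 in L6 (interval 1.56 to 1.59) and at 1.26 times in prepupa (1.25 to 1.27), but at 0.727 times in pupa (0.724 to 0.730). COX1 over COX2 per base was 4.01 in L6, 4.40 in prepupa and 1.62 in pupa.

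**Figure D2:**
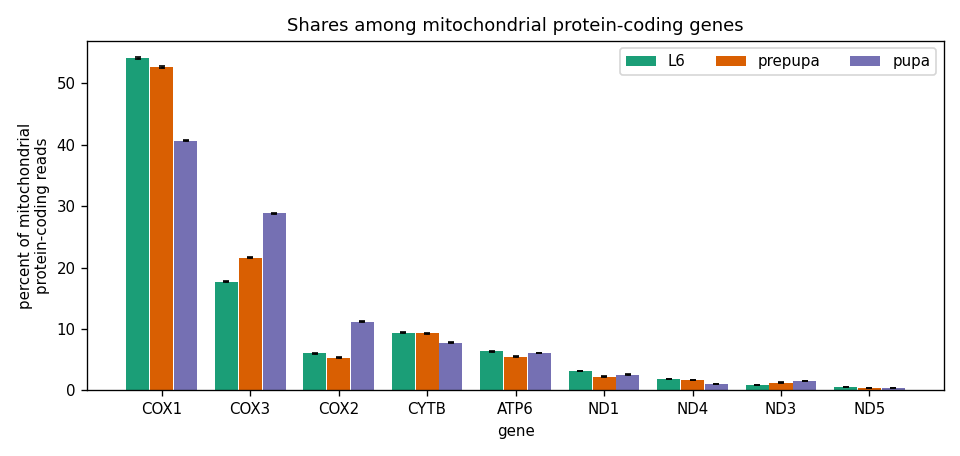
Share of each gene in the mitochondrial protein-coding reads, in percent (vertical axis), for the 9 genes with most reads, with 1 bar per library (L6, prepupa, pupa) and black bars for the 95% counting interval. COX1 has its lowest bar in pupa, at 40.6%, and COX3 and COX2 have their highest there, at 28.8% and 11.2%.

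CYTB (10542 to 11689) is the mitochondrial subunit of complex III, which hands electrons to cytochrome c. It had 30890, 69816 and 86814 reads in L6, prepupa and pupa, a share of 9.41%, 9.30% and 7.76%. ATP6 (4034 to 4711) forms part of the proton channel of ATP synthase and had 20989, 41119 and 68162 reads, a share of 6.39%, 5.48% and 6.09%. These shares spanned a smaller range of folds than that of COX2.

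ATP8 (3879 to 4040), the other mitochondrial subunit of ATP synthase, had 0 reads in every library, which allows up to 3 reads, or a share of up to 0.000914% in L6, 0.000400% in prepupa and 0.000268% in pupa. The row overlaps ATP6 by 7 bases, and in Drosophila melanogaster both are read from 1 mature RNA. Per base, ATP6 had at least 1672 times the reads that 3 reads on ATP8 would give in L6, at least 3275 times in prepupa and at least 5429 times in pupa. ATP8 is, with 162 bases, the shortest of the protein-coding rows. How a read that overlaps both rows was assigned is not given.

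The complex I genes code for the membrane arm of NADH dehydrogenase and differed widely in reads. ND1 (11775 to 12713, complementary strand) had 10258 reads in L6, 16594 in prepupa and 28694 in pupa. ND4 (8194 to 9532, complementary strand) had 6100, 12815 and 11947, and ND3 (5567 to 5918) had 2946, 9427 and 16560. ND5 (6382 to 8127, complementary strand) is the longest of the 13 rows but had only 1577, 3196 and 3396 reads. Of the complex I reads, ND3 held 14.004%, 22.3% and 26.9% in L6, prepupa and pupa, whereas ND4 held 29.0%, 30.3% and 19.4%. ND1 held 48.8%, 39.2% and 46.6%.

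The other 3 complex I genes had few reads for their length. ND2 (248 to 1256) had 96 reads in L6, 211 in prepupa and 805 in pupa. Its share of 0.0720% in pupa (interval 0.0672 to 0.0771) lay above 0.0281% in prepupa (0.0246 to 0.0322) and 0.0292% in L6 (0.0239 to 0.0357). ND6 (10008 to 10538) had 43, 66 and 135 reads, and ND4L (9573 to 9863, complementary strand) had 17, 33 and 79. The intervals of the ND4L shares overlapped in all 3 stages, at 0.00323% to 0.00829% in L6, 0.00313% to 0.00617% in prepupa and 0.00567% to 0.00880% in pupa.

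Per kilobase of gene the protein-coding genes spanned about 3 orders of magnitude in each library. In L6 the highest was COX1, with 36656 CPM per kb, followed by COX3 with 23271, and the lowest gene with reads was ND4L, with 18.5. In prepupa these were COX1 with 15328, COX3 with 12186 and ND4L with 6.73. In pupa COX3 was first, with 30471 CPM per kb, before COX1 with 22148, and ND6 was lowest, with 19.0. Of the protein-coding genes, ND5, ND2, ND6 and ND4L stood below all others with reads at every stage, and ATP8 at 0. COX1 and COX3, the group of COX2, ATP6 and CYTB, ND1 and ND3, and ND4L and ND6 changed places among themselves between stages, and ATP6 and CYTB in prepupa were nearly level, at 3598 and 3608 CPM per kb.

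**Figure D3:**
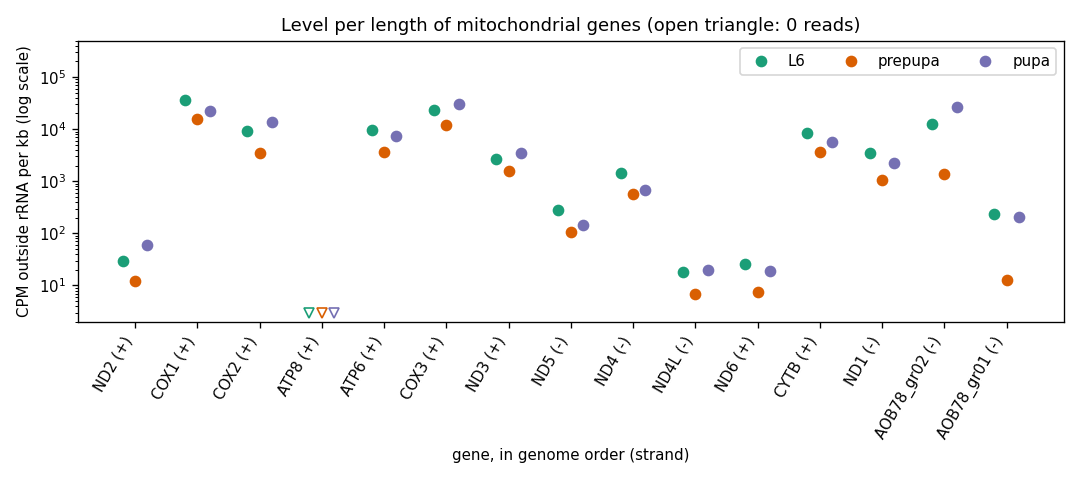
Reads per kilobase of gene, in CPM per kb on a log axis, for the protein-coding and rRNA genes in order along the mitochondrial sequence, with 1 point per library (L6, prepupa, pupa). COX1, COX3 and AOB78_gr02 stand highest, and ND2, ND6 and ND4L lie between 6.73 and 59.5 CPM per kb in all libraries; ATP8, with 0 reads, is drawn as open triangles at the bottom.

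Several neighbours on the sequence differed widely in reads per base. ND4 and ND4L lie on the same strand, 40 bases apart and with no tRNA gene between them, and in Drosophila melanogaster share 1 mature RNA. Per base ND4 had 78.0 times the reads of ND4L in L6 (interval 48.7 to 134), 84.4 times in prepupa (60.1 to 123) and 32.9 times in pupa (26.3 to 41.5). CYTB and ND6 are 3 bases apart, also with no tRNA gene between. Per base CYTB had 332, 489 and 297 times the reads of ND6 in L6, prepupa and pupa. COX1 and ND2, which have 3 tRNA genes between them, differed by 1219, 1235 and 372 times per base.

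Per base COX3 had 2.38 times the reads of ATP6 in L6, 3.39 times in prepupa and 4.06 times in pupa. ATP6 and COX3 overlap by 1 base with no tRNA gene between them. ND4 had 5.04, 5.23 and 4.59 times the reads of ND5 per base, and these neighbours have 1 tRNA gene between them.

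The 22 tRNA genes, of 65 to 75 bases, had 0 reads in L6, 1 in prepupa and 2 in pupa, all on AOB78_gt01. The files give no amino acid for these rows. Short rows were empty in the nucleus too: of 517 nuclear rows of up to 75 bases outside rRNA, 0 had a read, against 39 of 226 rows of 76 to 200 bases. The labels name a size fractionation of the RNA, and its part in these zeros was not tested.

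The 2 rRNA genes of the mitochondrion code for the RNAs of its ribosome. AOB78_gr02 (12848 to 14184, complementary strand, 1337 bases) had 53528 reads in L6, 30755 in prepupa and 479289 in pupa. These were 16917, 1825 and 35746 CPM, which put pupa at 19.6 times prepupa and at 2.11 times L6. The shorter AOB78_gr01 (14250 to 15037, complementary strand, 788 bases) had 581, 173 and 2217 reads. Per base AOB78_gr02 had 54.3 times the reads of AOB78_gr01 in L6 (50.04 to 59.0), 104.8 times in prepupa (90.2 to 122) and 127 times in pupa (122 to 133).

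Mitochondrial rRNA over mitochondrial protein-coding reads was 0.165 in L6 (0.163 to 0.166), 0.0412 in prepupa (0.0407 to 0.0417) and 0.430 in pupa (0.429 to 0.432). In pupa AOB78_gr02 alone had 1.05 times the reads of COX1, against 0.0778 times in prepupa and 0.301 times in L6. Prepupa, with the lowest ratio, had the lowest share of nuclear rRNA reads, 0.0974%, but L6, with the highest share, 85.3%, had a lower ratio than pupa, with 31.7%. Mitochondrial rRNA made up 0.288% of all rRNA reads in L6, 65.3% in prepupa and 6.95% in pupa. The part of rRNA handling in these ratios was not tested. Deposited TPM, which counts rRNA in its total, gave AOB78_gr02 4337 in L6, 2172 in prepupa and 22752 in pupa, so that pupa stood at 5.25 times L6.

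For the differences between stages, 14261 genes with at least 1 CPM in 1 or more libraries were compared on CPM + 1, and a gene was called higher or lower at a 2-fold difference. Of the 13 protein-coding genes 12 passed this minimum, and ATP8 did not. In prepupal glands 10 of the 12 were at least 2-fold lower than in L6 glands and 0 were higher, whereas of all genes 26.4% were lower and 24.6% higher. The 12 genes lie on 1 sequence, and such genes are copied in shared precursors. Here and below they are therefore not 12 separate observations. The 12 log2 values lay between -1.72 and -0.73, with a median of -1.30, against -0.03 for all genes. ND1 was lowest, at -1.72. ND3 and COX3, at -0.73 and -0.93, were the genes that missed the 2-fold difference. Other scales, added after the data were seen, gave other counts. By level per length, which uses gene length for mitochondrial rows and exon reads per exon length for nuclear rows outside rRNA, only ATP6, ND1 and ND6 were at least 2-fold lower, 0 were higher and the median log2 value was -0.94, against 0.43 for all genes. Over all gene reads, rRNA included, the direction turned, and 10 of the 12 were higher and 0 lower, with a median of 1.39, but the median of all genes was then 1.76. Of all genes 34.7% were higher and 18.9% lower by level per length, and 66.8% higher and 5.10% lower over all gene reads.

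In pupal glands 8 of the 12 were at least 2-fold higher than in prepupal glands and 0 were lower, against 28.4% higher and 31.8% lower among all genes. The median log2 value was 1.13, against -0.03 for all genes. ND2 at 2.17 and COX2 at 1.97 were highest. ND4, ND5, COX1 and CYTB, at 0.23, 0.42, 0.53 and 0.64, were the genes that missed the 2-fold difference. By level per length 2 of the 12, ND2 and COX2, were at least 2-fold higher and 0 lower, while COX1, ND4 and ND5 turned to -0.10, -0.40 and -0.21. The median was then 0.50, against -0.47 for all genes. Over all gene reads 2 were likewise higher and 0 lower, and the median was 0.53, against -0.40 for all genes. Of all genes 21.9% were higher and 40.3% lower by level per length, and 20.3% and 39.2% over all gene reads. Both comparisons use the same prepupal library, so their values are not independent of each other.

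Between pupa and L6, 0 of the 12 were at least 2-fold higher and 1 was lower, against 22.0% and 31.6% of all genes. The lower gene was ND4, with 891 CPM in pupa and 1928 CPM in L6, and its log2 difference was -1.11. ND2 stood highest, at 0.96, and 5 genes were above 0 and 7 below. The median was -0.39, close to the -0.29 of all genes. With TMM scaling 27.9% of all genes were higher and 24.3% lower, the median of all genes became 0.05, and 2 members were higher and 0 lower. By level per length 0 were higher and 2 lower, ND4 and ND5, and over all gene reads 12 were higher and 0 lower, where the median of all genes was 1.06 and 51.5% of them were higher and 4.41% lower. Under the 6 scales tried (total, TMM, DESeq2 size factors, unique reads, level per length and all gene reads), no gene kept its sign in prepupa over L6, because all 12 turned over all gene reads. In pupa over prepupa 9 genes were above 0 under all 6 and COX1, ND4 and ND5 changed sign, and in pupa over L6 4 were above 0 under all 6 and 8 changed sign. The share of all genes that keep their sign under the 6 scales is not given. These counts can therefore not be called particular to the members. Relative to the median of all genes, the median of the members was lower in prepupa than in L6 under these 6, by a log2 value of -1.27 over the reads outside rRNA and of -0.36 over all gene reads. A change of total or scaling factor moves all genes alike before 1 CPM is added. Agreement among the total, TMM, DESeq2 and all gene reads scales is therefore no separate support. The values -1.27 and -0.36 differ through the added 1 CPM.

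**Figure D4:**
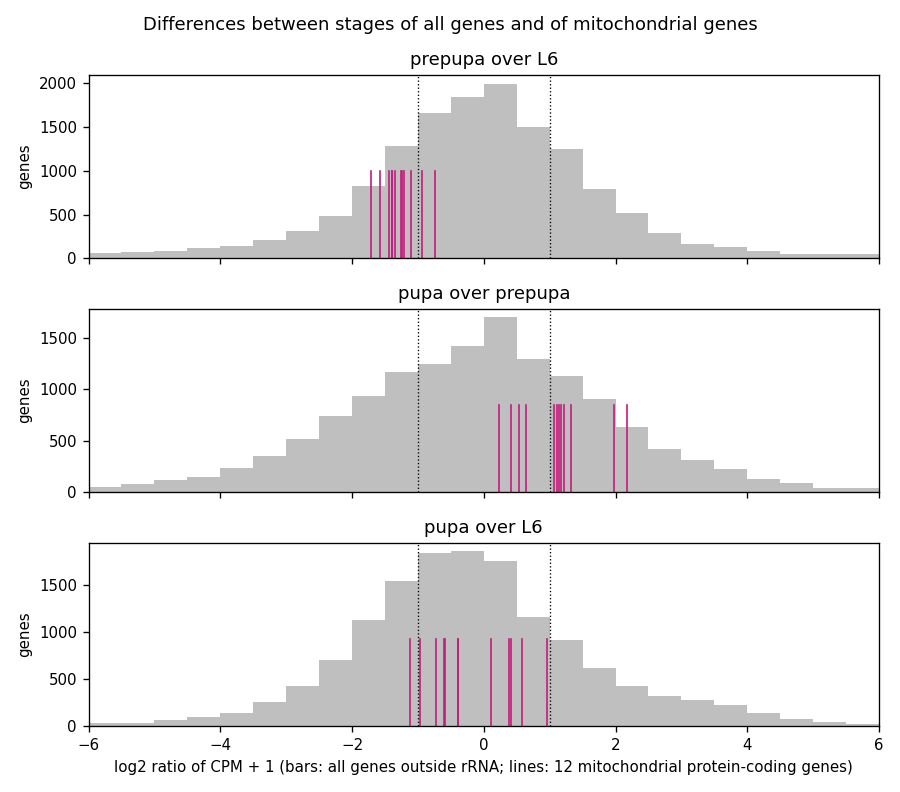
Log2 of (CPM + 1) between stages (horizontal axis) against the number of genes per bin (grey, of 14261 genes, those beyond the axis not drawn), with the 12 mitochondrial protein-coding genes as coloured lines of no meaning in height and dotted lines at a 2-fold difference. On this scale the 12 genes lie below 0 in prepupa over L6 (above 0 over all gene reads) and above 0 in pupa over prepupa (COX1, ND4 and ND5 below 0 by level per length and over all gene reads), and spread around 0 in pupa over L6 (above 0 over all gene reads).

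By level per length the mitochondrial protein-coding genes held 10.7% in L6, 6.24% in prepupa and 8.33% in pupa. COX1 ranked 3, 5 and 3 among 20541 rows, and COX3 ranked 4, 6 and 2. In pupa the level of COX3, 29490 (scaled like TPM), was nearly that of the highest nuclear gene there, LOC118273064, with 29492.

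The nuclear genes of the respiratory chain were compared in the same way. By protein name 16 were found, 7 of complex I, 3 of complex III, 2 of complex IV, 3 of ATP synthase and 1 ADP/ATP translocase. No name for a complex II subunit or cytochrome c was matched. Protein names were held for 2297 genes, and all 16 came from the table of genes that the study selected as higher in these glands than in other tissues. The list is therefore no independent evidence of a direction. In prepupa 1 of the 16 was at least 2-fold higher than in L6 and 3 were lower, against 24.6% and 26.4% of all genes. In pupa 9 were higher and 3 lower than in prepupa (all genes 28.4% and 31.8%), and 9 were higher and 5 lower than in L6 (all genes 22.0% and 31.6%). The median log2 values were -0.17, 2.29 and 3.22, against -0.03, -0.03 and -0.29 for all genes. The 9 genes that were higher in pupa than in L6 had only 2 to 34 reads each in L6, so the size of their difference is imprecise. The complex I gene, LOC118266251, had nearly no unique reads and shares its reads with another locus.

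The CPM of single nuclear genes, which is not corrected for length, is set out here by stage. The gene with the highest mean was the ATP synthase lipid-binding protein LOC118269627, which forms the rotor ring of the enzyme, with 2857 CPM in L6, 894 in prepupa and 925 in pupa. ATP synthase subunit alpha, LOC118265881, part of the catalytic head, had 734, 905 and 162 CPM. The Rieske subunit of complex III, LOC118273531, an iron-sulfur protein that passes electrons on to cytochrome c1, had 306, 177 and 139.8 CPM. Subunit 2 of complex III, LOC118272415, had 190.3, 186 and 55.5 CPM.

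Of the nuclear subunits of complex IV, subunit 5A, LOC118277736, had 485, 251 and 324 CPM in L6, prepupa and pupa. Subunit 6B1, LOC118272914, had 2.84, 4.87 and 143 CPM. The complex I genes LOC118263461 and LOC118273680 had 115, 140.0 and 44.9 CPM and 124, 59.99 and 88.9 CPM. ADP/ATP translocase 3-like, LOC118274299, which exchanges ATP for ADP across the inner membrane, had 10.7, 32.5 and 79.0 CPM.

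Mitochondrial protein-coding reads were 21.4 times the reads of these 16 nuclear genes in L6 (interval 21.1 to 21.8), 16.7 times in prepupa (16.6 to 16.9) and 34.7 times in pupa (34.3 to 35.1). The median gene gave another order: by level per length the median of the 13 mitochondrial genes was 271 times that of the 16 nuclear genes in L6, 57.9 times in prepupa and 25.95 times in pupa, the lowest. The nuclear median in L6 is imprecise, as 9 of the 16 genes had only 2 to 34 reads there. Summed over the 16 genes the nuclear reads were 4846, 2664 and 2404 CPM, but the median gene had 8.06, 18.7 and 83.9 CPM. ATP synthase had 3592, 1801 and 1116 CPM of these sums, which was most of the sum in L6 and prepupa but not in pupa. The 9 genes that were at least 2-fold higher in pupa than in L6 had exon lengths of 376 to 1341 bases, and the 5 that were lower had 991 to 2066 bases. The part of transcript length in these differences was not tested.

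**Figure D5:**
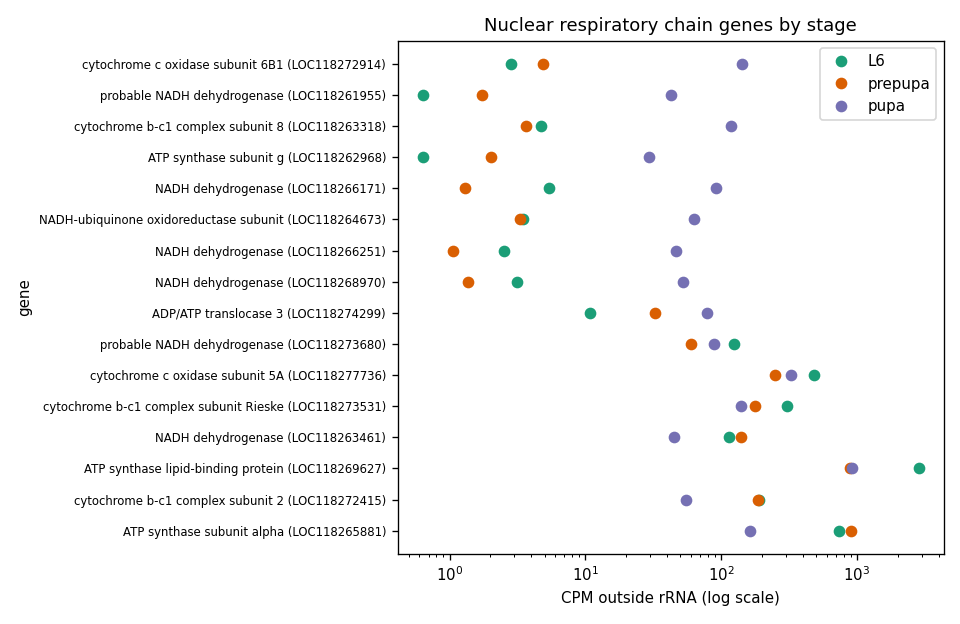
CPM outside rRNA on a log axis for the 16 nuclear respiratory chain genes (1 row each, ordered by the pupa over L6 difference), with 1 point per library (L6, prepupa, pupa). The top 9 genes are at least 2-fold higher in pupa than in L6, led by subunit 6B1 with 143 CPM in pupa and 2.84 CPM in L6, and ATP synthase subunit alpha is at the bottom.

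Lists of other nuclear genes that serve the mitochondrion were small, and all but 1 of their names, that of a citric acid cycle enzyme, came from the same table of selected genes. Of 7 mitochondrial ribosomal proteins 0 were at least 2-fold higher and 3 lower in prepupa than in L6, 2 were higher and 0 lower in pupa than in prepupa, and 0 were higher and 1 lower in pupa than in L6. Their median log2 values were -0.78, 0.32 and -0.67, beside -0.03, -0.03 and -0.29 for all genes, of which 24.6%, 28.4% and 22.0% were higher and 26.4%, 31.8% and 31.6% lower in these comparisons. Ribosomal protein L28, LOC118263642, had 74.3, 87.0 and 107.7 CPM in L6, prepupa and pupa, and L49, LOC118267892, had 42.7, 24.5 and 63.8 CPM. Of 5 genes for upkeep of the mitochondrial DNA and its RNA, 0 were called in prepupa over L6, 2 were higher in pupa than in prepupa and 2 higher in pupa than in L6, with 0 lower in any, beside the same shares of all genes, and medians of -0.42, 0.95 and 0.50. DNA polymerase subunit gamma-2, LOC118264581, which belongs to the enzyme that copies mitochondrial DNA, had 36.7, 27.1 and 137 CPM. Dimethyladenosine transferase 1, LOC118272339, which methylates mitochondrial rRNA, had 72.4, 79.2 and 40.9 CPM.

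The 9 enzymes of the citric acid cycle, which delivers electrons to the chain, were counted in the same way. In prepupa 5 were at least 2-fold higher and 1 lower than in L6, against 24.6% and 26.4% of all genes. In pupa 1 was higher and 7 lower than in prepupa (all genes 28.4% and 31.8%), and 3 were higher and 6 lower than in L6 (all genes 22.0% and 31.6%). The medians were 1.36, -3.18 and -2.36, against -0.03, -0.03 and -0.29 for all genes. Of the 5 genes higher in prepupa than in L6, malate dehydrogenase LOC118271860 had 11 reads in L6, and 12.6% of its prepupal reads were unique. Another, 2-oxoglutarate dehydrogenase LOC118267177, had 7 reads in L6. The gene lower in prepupa, malate dehydrogenase LOC118274626, had 42.5% unique reads in L6 and 45.2% in prepupa. The isocitrate dehydrogenase genes LOC118262464 and LOC118267252 had the highest mean CPM. LOC118262464 had 164 CPM in L6, 1065 in prepupa and 30.1 in pupa, and LOC118267252 had 299, 772 and 57.7 CPM. The names do not give their cosubstrate, so these genes may also code for enzymes outside the mitochondrion.

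Genes listed by protein name as markers of other tissues also differed between the libraries. A name does not fix the tissue. Troponin I LOC118263900, trypsin-1-like LOC118271895 and phenoloxidase subunit 1 LOC118274789, for example, came from the table of genes selected as higher in these glands. The paper also describes peptidase and phenoloxidase genes as highly expressed in Verson's glands. The 11 muscle genes summed to 6550 CPM in L6, 551 in prepupa and 345 in pupa, with 0 of them at 0 reads in any library. In prepupa 8 of them were at least 2-fold lower than in L6 and 3 higher, against 26.4% and 24.6% of all genes. Troponin I, LOC118263900, had 3111, 18.6 and 107 CPM, whereas the 3 higher genes, all titin-like, made up most of the prepupal sum, and LOC118269398 among them had 0.316, 239 and 0.522 CPM. The 5 fat body genes summed to 3186, 556 and 13983 CPM, also with 0 at 0 reads. In prepupa 3 of them were at least 2-fold lower than in L6, against 26.4% of all genes, and 2 were above their L6 value by less than 2-fold. Among the 3 were apolipophorin-3, LOC118274630, with 1784, 39.2 and 7269 CPM, and vitellogenin-like LOC118280767, with only 10 reads in L6 and 12 in prepupa. The 7 midgut genes, named as trypsins and an aminopeptidase N, summed to 25.6, 523 and 9.02 CPM, with 3, 2 and 3 at 0 reads. The 2 genes listed for hemocytes, both phenoloxidase subunits, summed to 667, 7.95 and 7.53 CPM. No gene name of nerve or trachea was matched, and no marker of Verson's glands themselves was set, so the labelled tissue was not checked by one. The muscle, fat body and hemocyte sums were, like the mitochondrial share outside rRNA, higher in L6 than in prepupa. The midgut sum was lower in L6. In pupa the fat body sum stood above its L6 value, whereas the mitochondrial share stood below. Whether the reads of these listed genes came from other tissues or from gland cells was not tested, nor was their part in that share.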

How the data were processed

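Verson's glands of FAW-SID1 were sequenced by the authors (BGISEQ-500 platform, 1 library for each stage), and reads were mapped in CLC Genomics Workbench 9.5.9 (mismatch cost 2, insertion and deletion costs 3, length and similarity fractions 0.8). Not given in the sources used here were the genome build, the annotation release, the strand setting, the read length and the assignment of multiply mapped reads. The deposited counts are whole reads per gene, as total and unique reads, and the deposited TPM is exon reads per exon length scaled to the same total in each library. Coordinates are those of the files, and the gene length was taken from them where the exon length is 0. The authors' RPKM was not used.

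CPM was gene reads over reads outside rRNA genes, and folds were taken on CPM + 1 for genes with at least 1 CPM in 1 or more libraries. A 2-fold difference was called. Wilson intervals were used for shares and exact binomial intervals for ratios of reads, at 95%, and a count of 0 was set to a floor of 3 reads. The rule for named genes took every row of the mitochondrial sequence (the tRNA rows without a read are given as a count) and the 2 genes with the highest mean CPM of each list of nuclear mitochondrial genes. LOC118266251, LOC118273064, LOC118271860, LOC118267177, LOC118274626 and the marker genes were named after their values were seen. The members and the lists were chosen with earlier results of these data known. Protein names came from the paper's tables, which were held in part. The fold calls were run on simulated Poisson counts around a mean profile shared by the stages. That setting has no spread between libraries and no difference in rRNA handling, so it cannot check the calls against either. Alternatives were unique reads, other totals, TMM factors (edgeR 4.0.16), DESeq2 1.42.0 size factors, other pseudocounts, no minimum and a fold of 4. The level per length, the folds over all gene reads and the share of all 37 rows were added after the data were seen. R 4.3.3, Python 3.11.15, numpy 2.4.6, pandas 2.3.3, scipy 1.17.1 and matplotlib 3.10.9 were used. The comparison with other tissues, in which the authors took the 3 stages as replicates, was not analysed here.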

Additional observations from a re-analysis of the deposited data

How the results depend on the processing

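No paired analysis was possible because each stage had 1 library, and for the same reason no library could be left out. The mitochondrial share of reads outside rRNA, in L6, prepupa and pupa, was 11.6%, 5.03% and 9.65% with unique reads, 12.1%, 4.80% and 9.66% of the reads of nuclear protein-coding genes, and 12.005%, 5.26% and 9.23% without the 10 nuclear genes with most reads of each library. Chosen after seeing the data, all 37 rows gave 11.9%, 4.63% and 11.5%, and the level per length gave 10.7%, 6.24% and 8.33%. Prepupa was lowest in each. Over all gene reads the share was 1.497%, 4.44% and 5.50%, with L6 lowest.

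The complex IV share was 72.5%, 74.6% and 77.0% per gene length and 51.6%, 56.9% and 67.4% without COX1. With a fold of 4 in place of 2, 0 members were lower in prepupa than in L6, 1 was higher in pupa than in prepupa and 0 were lower in pupa than in L6. Of all genes 11.6%, 14.1% and 12.9% were called in these comparisons and directions. In pupa over L6, TMM factors gave 2 members higher and 0 lower, DESeq2 size factors 1 and 0, and unique reads 1 and 1. Of all genes 27.9% were higher and 24.3% lower with TMM factors, 25.8% and 24.0% with DESeq2 size factors, and 21.9% and 30.7% with unique reads. By level per length, chosen after seeing the data, 3 members were lower in prepupa than in L6, 2 were higher in pupa than in prepupa and 2 were lower in pupa than in L6. Over all gene reads, also chosen then, 10 members were higher and 0 lower in prepupa than in L6, 2 were higher in pupa than in prepupa, and 12 were higher and 0 lower in pupa than in L6. The shares of all genes by level per length and over all gene reads are given above with the folds. Of the nuclear respiratory genes, 3 were higher and 2 lower in prepupa than in L6 with rescaled TPM, for which no share of all genes is given. With TMM factors 9 of them were higher and 3 lower in pupa than in L6, beside 27.9% and 24.3% of all genes. The causes were not tested. ND4L, with 17 reads in L6, and ND6, with 43, were the least precise of the 12 protein-coding genes with reads.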
